A study of Mus musculus with 26 samples.

Results

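Mouse E14 cells were examined here for 10 genes that encode CTCF, cohesin and other loop-forming proteins. The genes were Ctcf, Rad21, Smc1a, Smc3, Stag1, Stag2, Nipbl, Wapl, Yy1 and Satb1. They were taken by symbol, all 10 were found among the 52535 gene rows of the RNA-seq files, and all 10 passed the filter on low counts that left 17273 genes for testing. In the chromatin contact data, a loop was taken to belong to one of these genes where either of its anchors lay within 2500 bases of the annotated gene. That gave 161 of the 143451 loops in the WT-labelled list and 225 of the 489409 loops in the KO-labelled list.

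E14 is an embryonic stem cell (ESC) line of mouse blastocyst origin, and the series compared WT E14 with cells carrying a Klf4-KO genotype. The ESCs of both genotypes had been kept on gelatin in medium with serum, LIF and the inhibitors PD0325901 and CHIR99021. RNA-seq (2 libraries per genotype) and RNA polymerase II HiChIP (2 samples per genotype, deposited as 1 pooled loop list each) were labelled NPC, the abbreviation for neural progenitor cells, after 12 days of neural induction. The labels did not say how the knockout was made or whether it was 1 clone, and the ChIP-seq samples of the undifferentiated ESCs were not analysed here.

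The targeted gene went against the labels. No Klf4 reads (0 counts) were found in either WT-labelled library, against 2571 and 2538 counts in the KO-labelled ones, at least 752-fold higher when 3 counts per library are taken as the floor. Directions below are therefore given between the library labels, KO-labelled against WT-labelled, and not between genotypes. Gene counts totalled 29835774 to 37703866 per library. By edgeR's quasi-likelihood test at an adjusted p below 0.05, 37.2% of all genes tested stood higher in KO-labelled libraries and 35.8% stood lower, together 73.1%, so a call alone says little about any single gene. The summed level of 10 pluripotency markers was 8269 to 8287 counts per 1000000 (CPM) in WT-labelled and 4200.3 to 4279 CPM in KO-labelled libraries, with 9 of 10 lower and 1, Klf2, higher. The summed level of 10 neural progenitor markers was 77.1 to 78.3 against 124 to 135 CPM, with 8 of 8 tested higher, and Nes alone gave 73.3 to 73.4 CPM of it in the WT-labelled libraries. In the KO-labelled libraries Fabp7 had 28 and 25 counts, Hes5 7 and 4, and Olig2 0 and 1, and in the WT-labelled ones each of these 3 markers was at 0. Markers of mesoderm and fibroblasts rose from 5.17 to 6.50 up to 323 to 331 CPM (5 of 5), of endoderm from 1.03 to 1.34 up to 35.7 to 36.3 CPM (4 of 4 tested), and of trophoblast from 27.1 to 30.2 up to 395 to 398 CPM (3 of 4 tested, Cdx2 fell). In the KO-labelled libraries Col1a2 and Acta2, with means of 146 and 150 CPM, gave most of the mesoderm and fibroblast sum. The keratins Krt8 and Krt18, with means of 201 and 192 CPM, gave nearly all of the trophoblast sum there. Gata3 had a mean of 1.95 CPM there, Cdx2 fell from 16.7 to 1.67 CPM, and Elf5 had 0 and 5 counts. A set of 5 neuronal markers summed to 144 to 145 against 36.5 to 37.4 CPM, led by Tubb3, which fell, while the other 3 tested rose. All of these marker lists moved with the labels, and their part in the results below was not tested. In bulk RNA, fewer cells of one type and less RNA per cell cannot be told apart.

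Cohesin is a ring of SMC1A, SMC3 and the kleisin RAD21, joined by either STAG1 or STAG2. NIPBL, with its partner MAU2, activates the ring and promotes its loading, WAPL releases it, and the ring extrudes chromatin into loops until it meets DNA-bound CTCF, which marks many boundaries of topological domains. YY1 binds promoters and enhancers and can bridge them, and SATB1 is a nuclear protein that binds AT-rich DNA and organises chromatin in T cells and other cell types. In ESCs and during differentiation, CTCF and cohesin are required for domain structure and cell viability, and mutations of NIPBL and of cohesin subunits cause developmental syndromes with effects on the nervous system.

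Promoter sequences running from 250 bases before to 50 after an annotated start were matched for 7 of the 10 genes in RefSeq (GRCm38.p6, the assembly behind mm10), with 11 entries in all. The motifs searched in them, on both strands, were chosen after these sequences had been read. The letters AANATGGC, the form of the YY1 recognition sequence, occurred in 6.05% of 32851 promoters of this length and in 3 of the 11 entries. These entries belong to 3 of the 7 genes. Those 3 are shown because they place a YY1-type match in the promoters of an architectural factor, a ring subunit and a STAG subunit. Capitals mark the match, which on the printed strand reads in either direction.
Ctcf, chr8:105636528-105636567, plus strand: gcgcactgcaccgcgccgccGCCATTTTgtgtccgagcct
Smc3, chr19:53600376-53600423, plus strand: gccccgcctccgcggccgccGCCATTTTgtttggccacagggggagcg
Stag1, chr9:100643226-100643273, plus strand: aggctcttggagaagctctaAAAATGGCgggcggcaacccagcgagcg
In Smc3 the match began at the first transcribed base, in Ctcf at base 11, and in Stag1 it lay 202 bases before the start. This Stag1 start lies inside the annotated gene and not at its left end.

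Satb1 had 5 promoter entries and was the only one of the 7 genes with a KLF-type GGGNGTGG. That motif occurred in 17.6% of all promoters and in 3 of the 11 entries, all of them of Satb1. Its KLF-type matches fell at 2 sites, both shown here for the gene with the largest difference in RNA. A run of GC boxes (GGGCGG) stood in another of its entries. The GC box occurred in 35.7% of all promoters and in 7 of the 11 entries, with each of the 7 genes holding at least 1. Capitals mark the matches.
Satb1 KLF-type, chr17:51826617-51826664, minus strand: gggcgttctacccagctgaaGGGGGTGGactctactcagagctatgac
Satb1 KLF-type, chr17:51812155-51812198, minus strand: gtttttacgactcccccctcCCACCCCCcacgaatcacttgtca
Satb1 GC box, chr17:51832715-51832771, minus strand: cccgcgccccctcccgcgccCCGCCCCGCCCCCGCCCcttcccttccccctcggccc
Yy1 GC box, chr12:108793237-108793296, plus strand: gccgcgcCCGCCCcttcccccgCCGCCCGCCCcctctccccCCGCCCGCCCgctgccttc
The last 60 bases before the Yy1 start held 5 GC boxes. The longer CTCF core motif occurred in 0.557% of all promoters and in none of the 11 entries. A match in these letters is a description of the window and no evidence of binding.

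The RNA of the 10 genes did not move in 1 direction. In the KO-labelled libraries 4 of 10 genes were higher (Satb1, Stag2, Nipbl and Ctcf), 4 were lower (Wapl, Smc3, Yy1 and Rad21), and Smc1a and Stag1 did not pass the test. Those shares lie near the background of 37.2% and 35.8% of all genes, and the median log2 fold change of the 10 genes, 0.03, lay near that of all genes, also 0.03. The labelled groups did not overlap in CPM for 9 of the 10 genes, against 86.3% of all genes tested.

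Among the 3 ring subunits, Smc3 showed the largest difference with TMM scaling, but with library size alone its log2 fold change of -0.11 (adjusted p = 0.00411) was smaller in size than those of Smc1a (0.23) and Rad21 (0.14). Smc3, one of the pair of coiled-coil ATPases of the ring, measured 266 and 267 CPM in the WT-labelled libraries and 206 and 219 CPM in the KO-labelled ones. Both KO-labelled libraries lay below both WT-labelled ones. The log2 fold change was -0.32 ± 0.034 (SE, edgeR, adjusted p = 4.72e-09), 1.25-fold lower. Smc1a, its ATPase partner, measured 217 CPM in both WT-labelled libraries and 217 and 224 CPM in the KO-labelled ones, a log2 fold change of 0.02 ± 0.033 (adjusted p = 0.506) with a 95% interval of -0.043 to 0.092. The interval leaves room for changes of a few percent in either direction. Rad21, the kleisin that closes the ring and is cut by separase at anaphase, measured 363 and 354 CPM against 345 and 339 CPM. Its log2 fold change of -0.07 ± 0.029 passed narrowly (edgeR, adjusted p = 0.0411). The Rad21 call did not hold: without WT-labelled replicate 1 the adjusted p was 0.269, without KO-labelled replicate 2 it was 0.0652, and scaled by library size alone Rad21 was higher by 0.14 (adjusted p = 8.79e-05).

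Stag1 and Stag2, the alternative subunits that give the ring its different binding partners, separated. Stag2 measured 93.9 and 94.4 CPM in WT-labelled and 155 and 153 CPM in KO-labelled libraries, and the groups lay far apart relative to their spread. Its log2 fold change was 0.71 ± 0.040 (edgeR, adjusted p = 4.02e-14), 1.64-fold higher. Stag1 measured 94.2 and 106 CPM against 98.4 and 107 CPM, and was the only one of the 10 genes whose groups overlapped. Its log2 fold change was 0.03 ± 0.054 (adjusted p = 0.576), with a 95% interval of -0.078 to 0.15.

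The loader and the release factor moved in opposite directions. Nipbl measured 125 and 121 CPM in WT-labelled and 169 and 172 CPM in KO-labelled libraries, with both KO-labelled values above both others. Its log2 fold change was 0.47 ± 0.038 (edgeR, adjusted p = 4.33e-11), 1.39-fold higher. Wapl, which opens the ring and sheds cohesin from chromatin, measured 263 and 259.8 CPM against 205 and 209.8 CPM. Its log2 fold change was -0.33 ± 0.032 (adjusted p = 1.10e-09), 1.26-fold lower.

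Among the DNA-binding factors, Satb1 stood apart. It had 69 and 62 counts in the WT-labelled libraries and 730 and 654 counts in the KO-labelled ones, or 1.97 and 2.24 against 21.3 and 18.2 CPM. No other of the 10 genes changed by more than 1.64-fold, and Satb1 was 9.43-fold higher (log2 3.24 ± 0.16, edgeR, adjusted p = 2.39e-15). Of all genes tested, 22.3% were called at least 2-fold higher in KO-labelled libraries. Satb1 is best known from lymphoid cells, and 5 lymphoid markers summed to 0.285 to 0.325 CPM in WT-labelled and 0.583 to 0.753 CPM in KO-labelled libraries. Cd4, the 1 marker tested, was higher with at most 11 counts in a library, Rag1 was at 0 in all 4 libraries and Ptprc had counts in only 1 of them. The part of such cells in the Satb1 difference was not tested.

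Ctcf, the zinc-finger factor at which extruding cohesin stops, measured 186 and 184 CPM against 192 and 200.2 CPM. The groups were close but did not overlap, and the log2 fold change was 0.08 ± 0.035 (edgeR, adjusted p = 0.0393). The Ctcf call was lost with DESeq2 (adjusted p = 0.0645), without the filter on low counts (0.0994) and without any of 3 libraries: WT-labelled replicate 1 (0.121), WT-labelled replicate 2 (0.275) or KO-labelled replicate 2 (0.308). Yy1, a zinc-finger protein of active promoters and enhancers, measured 173 and 166 CPM in WT-labelled and 146 and 158 CPM in KO-labelled libraries. Its log2 fold change was -0.15 ± 0.040 (adjusted p = 0.00201), 1.11-fold lower, but with library size alone it was 0.06 in the other direction (adjusted p = 0.183).

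**Figure D1:**
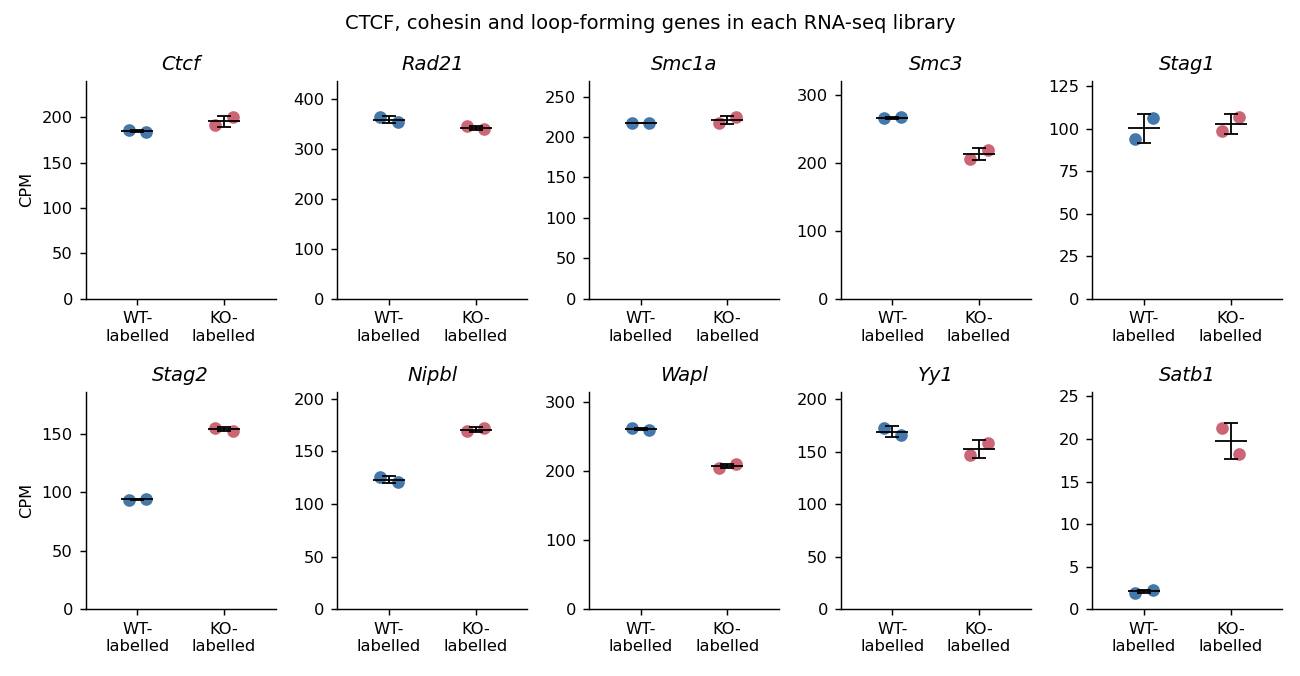
Each panel plots 1 gene, with the level in CPM (TMM-scaled library sizes, linear axis from 0) for the 2 WT-labelled (blue) and 2 KO-labelled (red) RNA-seq libraries as points, and the mean with its SD as bars. Stag2, Nipbl and Satb1 sit higher and Smc3 and Wapl lower in the KO-labelled libraries by far more than the replicate spread, while the points of Stag1 overlap.

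Because so many genes differed, the scaling between libraries decided the smaller differences. The median log2 fold change over all genes was 0.03 with TMM factors, 0.11 with upper-quartile factors and 0.24 with library size alone, and of all called genes 50.9% were higher with TMM and 62.0% with library size alone. Satb1, Stag2 and Nipbl were called higher and Smc3 and Wapl lower with TMM, upper-quartile and library-size scaling, with DESeq2, without the filter and without any single library. Smc1a was called higher with upper-quartile factors (0.11) and library size alone (0.23), and Stag1 only with library size alone (0.25), each close to the median of all genes under that scaling.

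**Figure D2:**
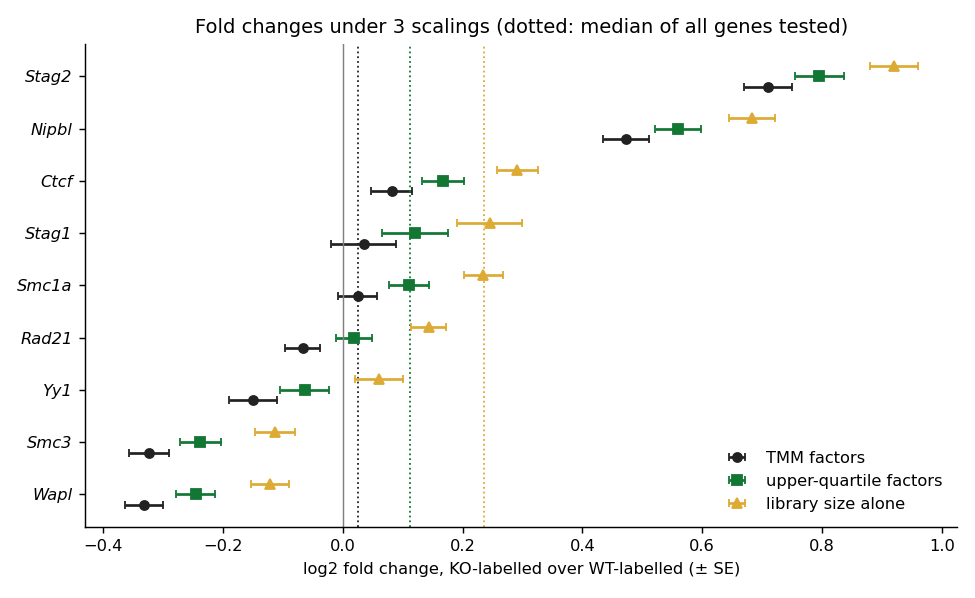
Log2 fold changes (KO-labelled over WT-labelled, bars ± SE from edgeR) of 9 of the genes are plotted under TMM, upper-quartile and library-size scaling, with dotted lines at the median of all genes tested under each. Stag2 and Nipbl lie right and Smc3 and Wapl left of 0 under all 3 scalings, Rad21 and Yy1 cross 0, and Satb1 (3.24 with TMM) is left off the axis.

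Ratios of counts between partners within a library do not depend on the scaling between libraries. The 7 ratios were chosen after the values of single genes were known, and their absolute size also depends on the lengths of both genes, so only the same ratio is compared across libraries. With 2 libraries against 2, the smallest p an exact two-sided permutation test can give is 0.333, which all 7 ratios reached, raw and adjusted. The Stag2 to Stag1 ratio was 0.997 and 0.887 in WT-labelled libraries against 1.58 and 1.43, 1.60-fold higher. The Nipbl to Wapl ratio, loader to release factor, was 0.477 and 0.464 against 0.824 and 0.820, 1.75-fold higher, the largest difference among the 7. The Nipbl to Mau2 ratio went the other way, from 1.72 and 1.58 to 1.197 and 1.23, as Mau2 RNA was 1.88-fold higher and Nipbl 1.39-fold higher.

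Within the ring itself, Smc1a to Smc3 was 0.817 and 0.813 against 1.05 and 1.02, and Rad21 to Smc3 was 1.37 and 1.32 against 1.67 and 1.55. Both ratios were higher in both KO-labelled libraries, so Smc3 counts fell relative to both of its ring partners. The Ctcf to Rad21 ratio was 0.514 and 0.520 against 0.556 and 0.590, a 1.11-fold difference that exceeded the spread within either label. For the cohesin-associated pair Pds5b to Pds5a the ratio was 0.497 and 0.502 against 0.429 and 0.428. None of the 7 ratios overlapped between the labels, but 86.3% of all single genes tested did not overlap either. The share for ratios of other gene pairs was not computed, so the separation says little about these partners.

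**Figure D3:**
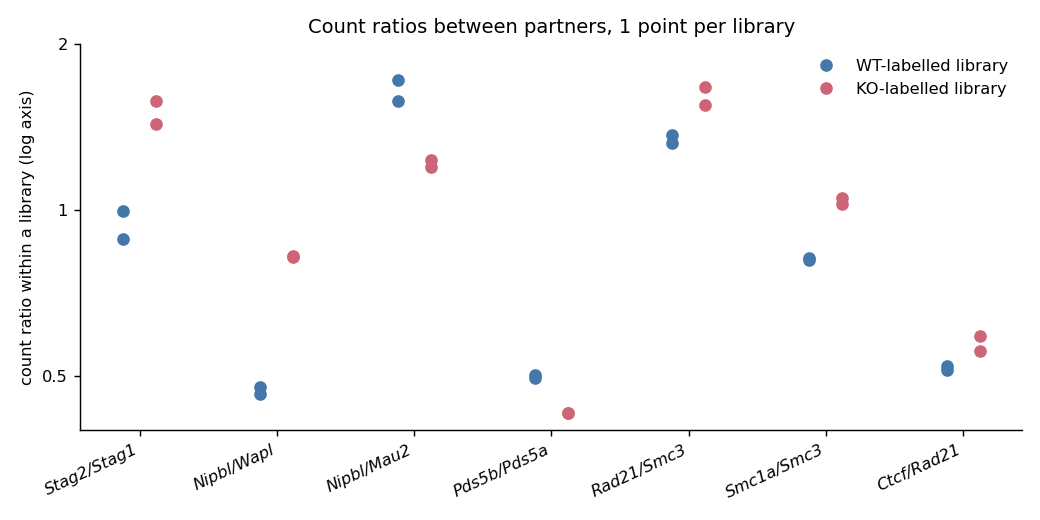
The ratio of counts between partner genes is plotted on a log axis, 1 point per library, WT-labelled in blue and KO-labelled in red. All 7 ratios separate by label, by 1.75-fold for Nipbl/Wapl and 1.60-fold for Stag2/Stag1, and least for Ctcf/Rad21. Levels of 86.3% of all single genes tested separate too, and the share for other gene pairs was not computed.

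The remaining genes of the cohesin pathway did not move as a block. Of 17 in the files, 16 were tested, with 4 higher, 7 lower and a median log2 fold change of -0.11 against 0.03 for all genes, of which 37.2% were higher and 35.8% lower. With library size alone the split was 7 higher and 4 lower. The 2 largest rises were of subunits best known from meiosis. Stag3, the meiotic STAG protein, measured 45.6 and 47.8 CPM in WT-labelled and 232 and 231 CPM in KO-labelled libraries, 4.96-fold higher (log2 2.31 ± 0.042, edgeR, adjusted p = 4.63e-24). Smc1b, the meiotic counterpart of Smc1a, measured 6.47 and 6.94 against 31.5 and 29.9 CPM, 4.59-fold higher (log2 2.197 ± 0.11, adjusted p = 4.05e-15). Rec8, the meiotic kleisin, measured 16.2 and 13.8 against 14.1 and 14.5 CPM (adjusted p = 0.604), and Rad21l had 1 count in each of the 4 libraries. The set of meiotic subunits thus differed among its own members, and Rec8 and Rad21l are named here after their values were seen. Stag3 overlaps Gal3st4 and Gpc2 in the annotation and Smc1b overlaps Fam118a and Gm10923, and without a stated strand setting reads of such neighbours cannot be told apart.

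Mau2, the NIPBL partner, measured 72.7 and 76.5 against 141 and 139 CPM (log2 0.91 ± 0.044, edgeR, adjusted p = 1.53e-15). Thus both proteins of the loader had more RNA in the KO-labelled libraries, in both replicates. Pds5a and Pds5b, which bind the ring and assist both release and acetylation, differed from each other. Pds5a measured 224 and 226 against 225 and 225 CPM (log2 0.00 ± 0.032, adjusted p = 0.986), but it was called higher with upper-quartile factors (0.09, adjusted p = 0.0208) and with library size alone (0.21, adjusted p = 1.82e-06). Pds5b measured 111 and 114 against 96.6 and 96.5 CPM (log2 -0.22 ± 0.043, adjusted p = 6.45e-05), a call that was lost with library size alone (adjusted p = 0.836).

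Sgo1 and Cdca5, which protect and stabilise cohesin on replicated chromosomes, showed the largest falls among the pathway genes. Sgo1 measured 97.9 and 91.8 against 56.0 and 53.2 CPM (log2 -0.80 ± 0.054, adjusted p = 1.31e-12). Cdca5, also called sororin, measured 118 and 122 against 80.6 and 88.0 CPM (log2 -0.51 ± 0.047, adjusted p = 5.89e-10). Both KO-labelled libraries were below both WT-labelled ones for each of the pair. The acetyltransferases Esco1 (29.9 and 29.6 against 20.6 and 23.4 CPM) and Esco2 (143 and 146 against 116 and 119 CPM) were also lower (adjusted p = 0.000142 and 2.80e-07). These are named after their values were seen, with separase, Espl1, at 199.9 and 201 against 176 and 162 CPM (adjusted p = 3.05e-06). The Espl1 call was lost with library size alone (log2 -0.03, adjusted p = 0.419).

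Condensin and the SMC5/6 complex are relatives of cohesin, the first compacting mitotic chromosomes and the second acting in DNA repair. Of 15 genes tested in this list, which also holds Smchd1, a gene of neither complex, 9 were lower and 3 higher. Their median log2 fold change was -0.33, where 35.8% of all genes were lower and 37.2% higher with a median of 0.03. With library size alone 8 were lower and 6 higher. Smchd1, an SMC-hinge protein of the inactive X chromosome, measured 89.5 and 93.3 against 168 and 167 CPM (log2 0.88 ± 0.041, adjusted p = 6.50e-16). Smc5 measured 99.8 and 95.8 against 118 and 122 CPM (log2 0.29 ± 0.044, adjusted p = 1.64e-06). The largest falls were in non-SMC elements of the SMC5/6 complex: Nsmce3 went from 79.5 and 78.4 to 28.5 and 29.5 CPM (log2 -1.45 ± 0.061, adjusted p = 9.75e-17) and Nsmce2 from 45.6 and 51.4 to 30.9 and 29.8 CPM (log2 -0.67 ± 0.074, adjusted p = 1.21e-08). The condensin core subunit Smc2 was lower as well (289.7 and 276 against 191 and 191 CPM, adjusted p = 7.00e-14), whereas Smc4 did not pass (242 and 239 against 236 and 230.2 CPM, adjusted p = 0.198), both named after their values were seen.

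Of 26 other looping, insulator and nuclear matrix genes tested, 8 were higher and 13 lower, with a median log2 fold change of -0.06, against the same background of 37.2% and 35.8%. With library size alone the split turned to 13 higher and 10 lower. Lhx2, which partners with LDB1 in long-range enhancer contacts, had 2 and 2 counts in WT-labelled and 37 and 31 counts in KO-labelled libraries (log2 3.85 ± 0.78, adjusted p = 0.000101), and its level stayed at 1.08 CPM or less. Lmna, the A-type lamin of differentiated cells, measured 10.3 and 12.4 against 42.4 and 41.2 CPM (log2 1.88 ± 0.097, adjusted p = 5.36e-15). Ctcfl, the germline paralogue of Ctcf, had 63 and 30 counts against 18 and 20 (log2 -1.41 ± 0.49, adjusted p = 0.0131). That call was lost without WT-labelled replicate 1 (adjusted p = 0.212).

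Of the Yy1 relatives, Zfp42 was lower and Yy2 was not detected. Zfp42, a YY1-related pluripotency marker that also stands in the marker list above, measured 855 and 842 against 409.95 and 415 CPM (log2 -1.04 ± 0.025, adjusted p = 1.65e-21). Yy2 had 0 counts in all 4 libraries.

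RNA polymerase II HiChIP enriches pairs of distant DNA fragments that lie together at sites holding the polymerase. Each deposited loop has 2 anchors and a number of paired-end tags, and there was 1 list per label, so no difference between the lists has a replicate check and no test was made. The labels of the loop lists were not checked here, so whether WT-labelled and KO-labelled mean the same cells as in the RNA-seq was left undetermined. The lists differed in size, with 407150 tags over 24123 anchors covering 92.5 Mb (WT-labelled) and 977208 tags over 51088 anchors covering 173 Mb (KO-labelled). Tags at a gene are given as counts and as tags per 1000000, scaled to the total of the list, where 1 tag is worth 2.46 (WT-labelled) or 1.02 (KO-labelled). Intervals are 95%, exact Poisson for a share and exact binomial for a ratio, and cover counting error only.

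Rad21, Stag1 and Wapl carried far smaller shares of the tags in the KO-labelled list. Rad21 had 59 tags in 8 loops against 12 tags in 6 loops, or 145 (110.3 to 187) against 12.3 (6.35 to 21.5) tags per 1000000, 11.8-fold lower (6.28 to 24.1). Wapl had 58 tags in 26 loops against 16 in 8, or 142 against 16.4 tags per 1000000, 8.70-fold lower (4.93 to 16.2). Stag1 had 58 tags in 19 loops against 19 in 13, or 142 against 19.4 tags per 1000000, 7.33-fold lower (4.30 to 13.0). For these 3 genes the intervals of the shares did not meet, and the raw tag numbers also fell although the KO-labelled list was more than 2-fold larger. Smc1a, with 11 tags against 13, was 2.03-fold lower, but the interval of 0.824 to 4.91 includes no difference.

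None of the 9 genes with at least 20 tags over both lists was 2-fold higher in tag share and 4 were 2-fold lower, where over 20590 genes with as many tags 40.3% were at least 2-fold higher and 27.6% at least 2-fold lower. Their median ratio, KO-labelled over WT-labelled, was 0.583, against 1.20 over all those genes. Smc3 had the most tags over both lists together (229), 64 in 25 loops against 165 in 76 loops, or 157 (121 to 201) against 169 (144 to 197) tags per 1000000, a ratio of 1.07 (0.800 to 1.46). Ctcf had 85 tags in 42 loops against 119 in 44, or 209 (167 to 258) against 122 (101 to 146) tags per 1000000, 1.71-fold lower (1.28 to 2.28). Those 2 genes thus held the largest shares in both lists.

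Nipbl had 11 tags against 35 (27.02 against 35.8 tags per 1000000, ratio 1.33, 0.658 to 2.89). Yy1 had 15 against 62 (36.8 against 63.4, ratio 1.72, 0.968 to 3.26). Satb1 had 11 against 25 (27.02 against 25.6, ratio 0.947, 0.449 to 2.13), an interval that includes no difference. Stag2 had 5 tags in each list, 12.3 against 5.12 tags per 1000000, too few for the rule of 20 tags. RNA level and polymerase contacts are different quantities, and no relation between them across the 10 genes was tested.

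**Figure D4:**
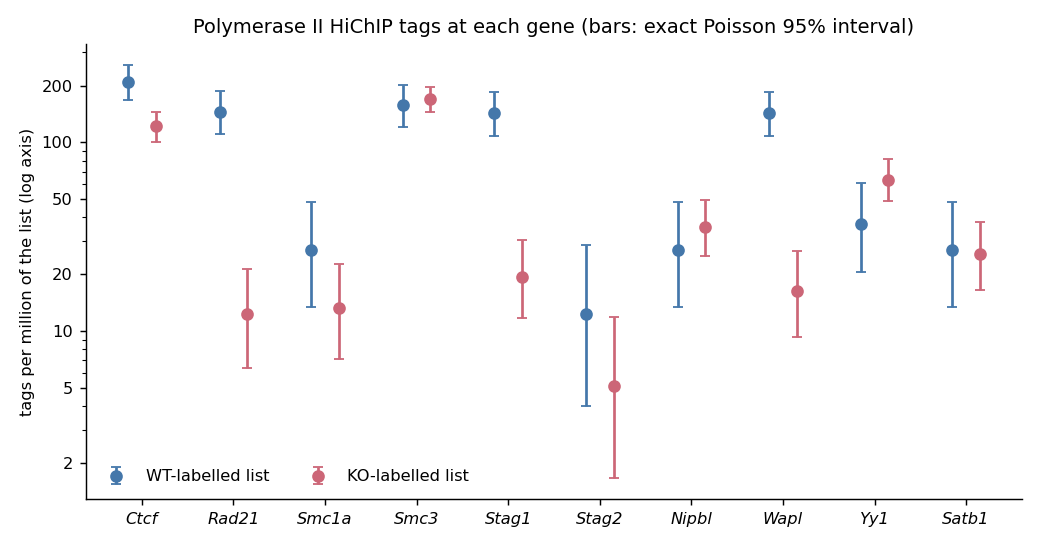
Polymerase II HiChIP tags at each gene, in tags per 1000000 scaled to the total of the list (log axis), are plotted for the WT-labelled (blue) and KO-labelled (red) lists, with exact Poisson 95% intervals that cover counting error only. Rad21, Stag1 and Wapl drop from about the level of Smc3 to 12.3, 19.4 and 16.4 tags per 1000000, and the intervals of Smc1a, Smc3, Stag2, Nipbl, Yy1 and Satb1 meet.

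These values depended on which loops were kept. With loops at a false discovery rate (FDR, the authors' value) of at most 0.01 and at least 2 tags, Rad21 was still lower (29 against 6 tags, 7.89-fold, 3.22 to 23.2). Wapl was left with 3 tags in each list and Stag1 with 9 against 6 (2.45-fold lower, 0.778 to 8.36), so for those 2 genes the difference lay in loops of an FDR above 0.01 or of 1 tag. Under that rule Ctcf turned to 18 against 76 tags, a ratio of 2.59 (1.53 to 4.60), and Yy1 had 4 against 35, a ratio of 5.36 (1.92 to 20.8). Of all genes with 20 such tags 50.3% were at least 2-fold higher. Within 2500 bases of an annotated start, Stag1 was 3.28-fold (1.75 to 6.28) and Wapl 4.65-fold lower (2.47 to 9.10). Ctcf had 68 against 119 tags there, only 1.37-fold lower (1.003 to 1.86). The Stag1 start used lies inside the annotated gene, so that window left out the anchor at the left end of Stag1.

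The anchors show where in the genes the tags lay. A loop with both anchors at the same gene counts at each of them, so anchor tags can exceed the total of the gene. Stag1 had 3 anchors in the WT-labelled list, with 18, 24 and 26 tags. Only the last of them, which covers the RefSeq start whose sequence is printed above, had an overlapping anchor in the KO-labelled list, with 19 tags. The first of the 3 covers the left end of the annotated Stag1 gene, and the centre of the last lies 45.2 kb inside the gene from that end. Wapl had 4 anchors in the WT-labelled list, with 31 tags at the start and 13, 6 and 12 tags inside the gene, and 1 anchor in the KO-labelled list, at the start, with 16 tags. Rad21 had 1 anchor in each list at the right end of the gene, overlapping Gm52217, with 59 and 12 tags. The Satb1 anchors covered its upstream starts, with 6 tags against 10, and an internal start, with 8 against 13 tags. One more Satb1 anchor, near the left end of the gene, had 7 tags in the KO-labelled list alone. Ctcf, Smc1a, Smc3 and Yy1 each had an anchor over the annotated start in both lists. Past the right end of the gene, a Ctcf anchor had 18 tags in the WT-labelled list alone. A Smc3 anchor past its right end had 30 tags in the KO-labelled list alone. With only anchors overlapping the gene body, Ctcf was 1.37-fold lower (1.003 to 1.86), and the Smc3 ratio was 0.892 (0.658 to 1.22). Carmil2 stood at an anchor of 13 Ctcf loops with 23 tags in the WT-labelled list, and of 1 loop with 9 tags in the KO-labelled list.

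**Figure D5:**
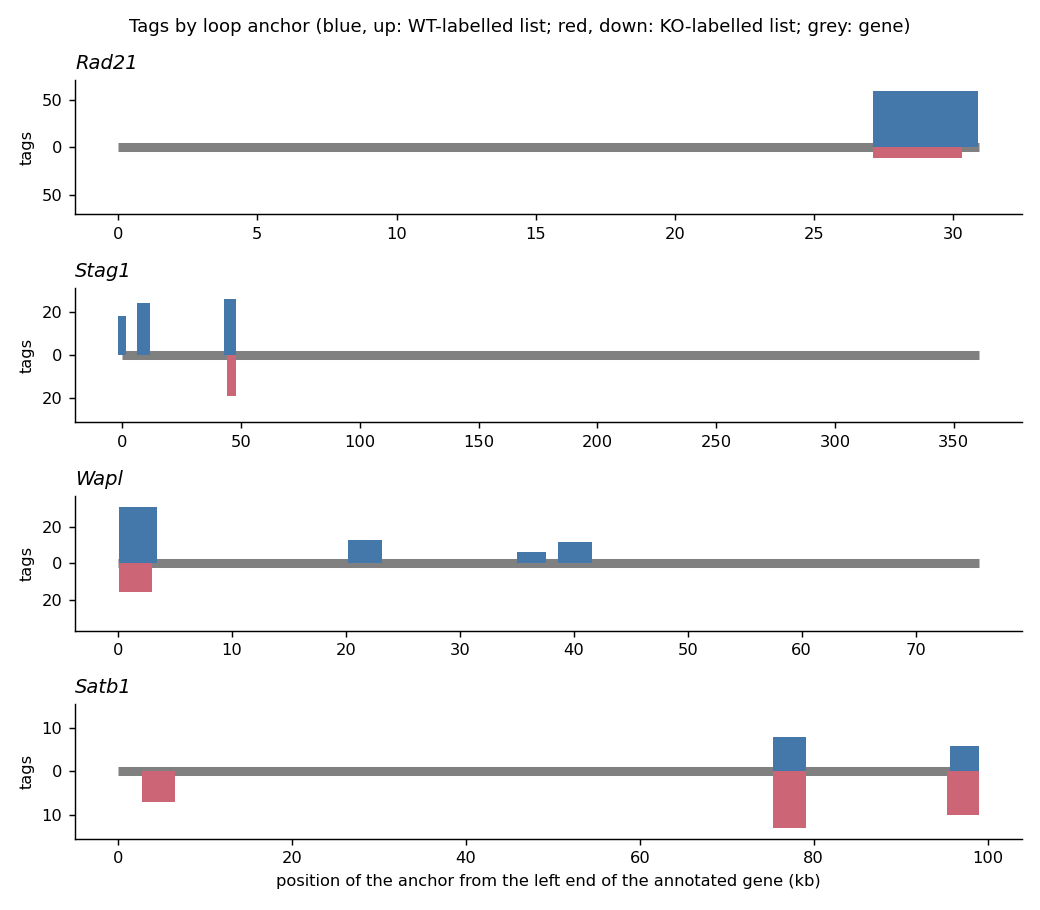
For Rad21, Stag1, Wapl and Satb1, the anchors are drawn to scale along the gene (grey, in kb from its left end), with tags upward for the WT-labelled list (blue) and downward for the KO-labelled list (red). Stag1 and Wapl have 3 and 4 anchors in the WT-labelled list and 1 each in the KO-labelled one, and Satb1 has 2 and 3. A loop between anchors of the same gene is drawn at both.

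The loops with most tags at each gene are given next, with raw tags that are not scaled to the total of each list. Of these loops, those given without an FDR had one of at most 0.01. The strongest Rad21 loops of the WT-labelled list, with 24 tags (FDR 8.96e-08) and 15 tags (FDR 0.0162), ran 21.2 and 9.93 kb. Their far anchors had no protein-coding gene within 2500 bases, and other gene types were not looked up. Neither loop was in the KO-labelled list, where no Rad21 loop had more than 2 tags. The first of those reached Ext1 over 1354 kb, a loop present in both lists, and the second spanned 399.5 kb. Stag1 had 11 and 9 tags in WT-labelled loops (FDR 0.0602 and 0.0613) that ran 25.6 and 62.0 kb. They met at 1 common anchor with no protein-coding gene, and neither of them was in the other list. Its 2 KO-labelled loops with most tags had 3 tags each, 1 of them to Msl2 over 430.5 kb.

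Smc3 kept a strong partner in both lists. Its loop to Smndc1, a splicing factor gene, spanned 207 kb with 17 tags in the WT-labelled and 208 kb with 15 tags in the KO-labelled list (FDR 0 in both). The next was a 178 kb loop with 5 tags (WT-labelled) and a 70.4 kb loop to Rbm20 with 7 tags (KO-labelled, FDR 0.0187). Over all its loops, Rbm20 took 9 tags in 3 loops in the WT-labelled list and 44 tags in 23 loops in the KO-labelled one.

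Ctcf joined its gene-dense neighbourhood in both lists. In the WT-labelled list its loop with most tags reached Agrp and Atp6v0d1 (6 tags, 71.4 kb), at an FDR of 0.387. The second reached Cenpt, Nutf2 and Thap11 (5 tags, 219 kb, FDR 5.08e-06). In the KO-labelled list 13 and 12 tags reached Ripor1, over 31.2 and 15.5 kb. All 4 loops were present in both lists. Yy1 had no WT-labelled loop above 2 tags, the first reaching Ppp2r5c over 1681 kb and the second Hsp90aa1 over 1912 kb. In the KO-labelled list 18 tags joined it to Slc25a29 at 40.7 kb (FDR 1.82e-08) and 4 tags to Wdr25 at 231 kb, and neither was in the WT-labelled list.

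Wapl had its loop with most tags in both lists, with 11 tags over 12.4 kb (WT-labelled, FDR 0.0797) and 6 tags over 12.7 kb (KO-labelled, FDR 0.211). Its second loop spanned 97.8 kb (6 tags, WT-labelled, FDR 0.153) or reached Bmpr1a over 169.5 kb (3 tags, KO-labelled, FDR 0.00881). The Nipbl anchor lay within 2500 bases of LOC102634078 too, in both lists. The 2 Nipbl loops with most tags in the WT-labelled list were 1 of 2 tags to Nup155 and 1 of 1 tag to Lifr (FDR 0.0231). In the KO-labelled list they were 1 of 5 tags over 144 kb (FDR 0.0495) and 1 of 4 tags to Slc1a3, a glutamate transporter gene, over 265 kb. The loop to Slc1a3 was found in both lists. Smc1a loops had at most 3 tags. In the WT-labelled list they reached Hsd17b10 and Ribc1 over 14.6 kb (FDR above 0.01) and Huwe1 (FDR 0.0239). In the KO-labelled list they reached Shroom2 (FDR 0.000315) and Kdm5c (FDR 0.0125). The Smc1a anchor itself also lay within 2500 bases of Ribc1 in both lists, so these loops cannot be told apart from loops of Ribc1. Stag2 reached Xiap with 2 tags over 89.3 kb and 3 tags over 81.5 kb, and its second loops had 1 tag each. Each of these Stag2 loops had an FDR above 0.01. The loop with most tags at Satb1 joined its own 2 start regions, over 20.1 kb with 3 tags (WT-labelled) and 19.9 kb with 4 tags (KO-labelled). Its second loops, with 2 and 3 tags, spanned 138 and 62.4 kb. Each of these Satb1 loops also had an FDR above 0.01. At these tag numbers a loop's absence from a list is not distinguishable from low sampling.

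Of the 161 loops at these genes in the WT-labelled list, 42 (26.1%, 95% Clopper-Pearson interval 19.5 to 33.6) had a counterpart in the KO-labelled list, and of the 225 KO-labelled loops 44 (19.6%, 14.6 to 25.3) had one in the WT-labelled list. Over all loops the shares were 24.5% and 7.49%. For 91 of the 161 WT-labelled loops (56.5%), with 215 of their 377 tags, the KO-labelled list lacked at least 1 of the loop's 2 anchors, against 55.8% of all WT-labelled loops. For 151 of the 225 KO-labelled loops (67.1%) the WT-labelled list lacked one, against 84.9% of all KO-labelled loops. At Rad21 this covered 6 of 8 WT-labelled loops and 55 of 59 tags, and the anchor at the gene itself stood in both lists, so the far anchor was the one lacking. It covered at Stag1 15 of 19 loops and 50 of 58 tags, and at Wapl 22 of 26 loops and 37 of 58 tags. Anchors were called in each list separately, and the part of anchor calling in these differences was not tested.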

How the data were processed

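RNA-seq was deposited by the authors as raw counts per gene symbol, 1 file per library. HISAT2 2.1.0, featureCounts 2.0.3, DESeq2 1.18.1, Bowtie2 2.4.4, HiC-Pro 2.11.1, MACS2 2.2.7.1 and mm10 stand in the submitters' processing notes. The strand setting and the annotation used for counting are not given here. The 5 rows naming no gene (20.4% to 22.5% of column totals) were left out. The deposited HiChIP lists give a tag count and an FDR (a q-value, the authors') per loop. HiChIP replicates share 1 list, so they appear pooled.

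Genes passing filterByExpr were TMM-scaled and tested with edgeR 4.0.16 (quasi-likelihood, robust, two-sided), with Benjamini-Hochberg adjustment over 17273 genes. Alternatives were DESeq2 1.42.0, other scalings, no filter, a replicate block and leaving out each library. Libraries were treated as biological replicates, following the series design. Replicates differed beyond sampling noise (chi-square per degree of freedom 3.48 and 4.19). On artificial counts in which few genes changed, edgeR recovered changes of 2-fold or more more completely than smaller ones. Most genes tested here were called, so those counts cannot show how scaling acts in these data. A count of 3 was 0.0837 to 0.108 CPM. Without transcript lengths, levels were not compared between genes.

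Gene positions and promoters came from RefSeq (GRCm38.p6). Loops counted as shared where both anchors overlapped by at least 1 base. The 10 genes and all lists were chosen with earlier results of these data known. In each list the 2 largest rises and falls among called genes and the relatives of the 10 genes were named, and for each gene and list the 2 loops with most tags. Some results that this rule gives are not reported here.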

Additional observations from a re-analysis of the deposited data

How the results depend on the processing

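With upper-quartile factors 2 of the 10 genes were called lower and 7 other cohesin genes higher, and Rad21 turned to 0.0191. With library size alone 7 of the 10 genes were called higher and 2 lower. Of the other cohesin genes 7 were then higher and 4 lower. In the list of condensin and SMC5/6 genes with Smchd1, 6 were higher, and 13 other looping and nuclear matrix genes were higher. Rad21 was at 0.143 and Yy1 at 0.0607. These counts follow the shift of the median of all genes, which scaling sets. Pds5a, at 0 within its error with TMM factors, had -0.000121 with DESeq2 and -0.00882 without the filter. As given above, it was called higher with upper-quartile factors and with library size alone. Leaving out 1 library at a time, log2 fold changes ranged from -0.00242 to 0.0477 for Smc1a, from -0.0573 to 0.111 for Stag1 and from -0.00993 to 0.000919 for Pds5a, all of which had not passed the test. No within-library ratio turned when any 1 library was left out. The replicate numbers do not pair the libraries (r = 0.0196 between same-numbered deviations over genes, 2 pairs). With the replicate block 4 of the 10 genes were called higher and 3 lower, since Rad21 lost its call (adjusted p = 0.0533), and over all genes 6298 were higher and 6112 lower.

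Loops at an FDR of at most 0.01 with at least 2 tags numbered 23 at the 10 genes in the WT-labelled and 48 in the KO-labelled list. At 4 of the 10 genes at least 20 such tags were left, of which 2 were at least 2-fold higher and 1 lower, where over all genes with as many 50.3% were higher and 31.2% lower with a median ratio of 2.07. At the 10 genes 13.0% and 8.33% of the loops were shared. The start-window alternative covered the 7 genes with a RefSeq promoter entry. With 10 to 229 tags per gene over both lists, counting error limits each tag share.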

Other observations

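Hnrnpu, which encodes a nuclear matrix protein that helps organise chromatin, differed between replicates of 1 label. It had 1058 and 862 counts in the WT-labelled libraries, 741 in KO-labelled replicate 1 and 4059 in KO-labelled replicate 2, or 30.2, 31.1, 21.6 and 113 CPM. It did not pass the test (adjusted p = 0.459), and it overlaps Cox20 in the annotation. The gene was singled out after its values were seen.

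The topoisomerase genes in the list did not move together. Top2b measured 59.9 and 62.3 CPM in WT-labelled and 112 and 117 CPM in KO-labelled libraries (log2 0.91 ± 0.049, edgeR, adjusted p = 1.31e-14). Top2a, the form of dividing cells, measured 928 and 966 against 788 and 759.97 CPM (log2 -0.29 ± 0.026, adjusted p = 2.87e-10). Top1 measured 256 and 262 against 169.7 and 158 CPM (log2 -0.66 ± 0.036, adjusted p = 1.89e-14). The paired lamins differed in the same way, with Lmna higher, as given above, and Lmnb1 at 659 and 661 against 458 and 466 CPM (log2 -0.52 ± 0.026, adjusted p = 2.86e-15). These genes were also named after their values were seen.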
